A study of Mus musculus with 12 samples.

Results

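The genes described here make, cut and bind hyaluronan: the hyaluronan synthase genes *Has1*, *Has2* and *Has3*, the hyaluronidase genes *Hyal1*, *Hyal2*, *Cemip* and *Cemip2*, and the receptor gene *Cd44*. They were taken by symbol from the count matrix, in which all 8 were found among 56980 genes. Bulk RNA-Seq was performed on W-20 cells, a murine bone marrow stromal cell (BMSC) line labelled W-20-17, in 12 libraries that fall into 4 groups of 3. The WT vehicle (PBS) and WT PTH groups were the unmodified line, and the Y428F vehicle and Y428F PTH groups were a stable W-20 line with an introduced Flag-tagged YAP in which a tyrosine is replaced by phenylalanine (Y428F). PTH (parathyroid hormone) was given at 50 nM for 2 hours, and vehicle for the same time. The comparisons ask how the cells respond to PTH and whether a YAP that cannot be phosphorylated at this tyrosine changes the response.

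Several limits of the groups come from the labels and methods. The titles name the Y428F libraries, whereas the genotype label of all 12 libraries reads WT. The methods describe 2 stable lines with this substitution, of which one carries a further serine substitution, and the text of the study names the latter for the transcriptome whereas the titles give the tyrosine substitution alone. The lines were made with CMV plasmids and positive clones were selected with puromycin. No library of cells with an introduced unmutated YAP was analysed, so the mutation, the introduced YAP and clonal differences cannot be told apart. Nothing in the labels says whether replicates were separate cultures, so p-values measure the spread between these samples, which may be technical.

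Hyaluronan is a long, unbranched and unsulfated sugar polymer of the extracellular matrix. The synthases build it at the plasma membrane from UDP-glucuronic acid and UDP-N-acetylglucosamine and push the chain out of the cell as it grows. The hyaluronidase HYAL2 is anchored at the cell surface, HYAL1 works in lysosomes, and CEMIP and the membrane protein CEMIP2, also called TMEM2, take part in the breakdown of hyaluronan outside lysosomes. CD44 binds the polymer on stromal, blood and many other cells and links it to the actin cytoskeleton through ezrin, radixin and moesin.

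Library totals ranged from 17127897 to 19057319 counts. Expression is given in CPM, which are counts scaled to library size with edgeR's TMM factors, as mean ± SD over 3 libraries. The cells carried stromal genes at high levels. The 13 stromal markers in the vehicle libraries summed to 22050 ± 1787 CPM for WT and 14595 ± 587 CPM for the Y428F line, and 8 of the 11 tested were lower and 2 higher in Y428F cells (of all genes 22.7% were lower and 22.4% higher), with *Col1a2* the most abundant with group means from 6597 to 12829.5 CPM. Of these markers, *Thy1* had 0 counts in every library, and *Nt5e* and *Alpl* stayed under 1 CPM. The 7 blood cell markers summed to 1.34 ± 0.318 CPM for WT and 3.01 ± 0.426 CPM for the Y428F line with *Ptprc* the most abundant, and the other 6 were under 1 CPM in every library. Markers of other cell types were low, and some moved between the lines. The 4 endothelial markers summed to 1.42 CPM for WT and 8.91 CPM for Y428F vehicle libraries, mostly *Cdh5*, and the 3 epithelial markers to 0.624 and 3.66 CPM, mostly *Krt8*. The 3 adipocyte markers summed to 27.0 and 6.69 CPM, mostly *Fabp4*, and the 3 osteoclast markers to 0.468 and 0.181 CPM. The part of these shifts in the differences between the lines was not tested. In vehicle libraries *Yap1*, the gene of the mutated protein, was at 189 ± 7.20 CPM in WT cells and at 147 ± 4.64 CPM in Y428F cells, a total that does not separate the endogenous from the introduced gene. The PTH receptor gene *Pth1r* had 0 to 10 counts per library.

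The 8 genes differed widely in level. Per kb of the canonical transcript, the mean over the 12 libraries was 25.1 CPM per kb for *Cd44*, 23.3 for *Hyal2*, 7.06 for *Cemip2* and 2.25 for *Hyal1*. *Has1* had 0.412, *Has3* 0.372, *Cemip* 0.282 and *Has2* 0.115 CPM per kb. The ranges over the libraries of *Cd44* and *Hyal2* overlapped. Their order depends on the length used, since over the union of exons *Cd44* had 16.4 to 25.8 and *Hyal2* 7.48 to 12.0 CPM per kb, with no overlap. Per canonical transcript it was not resolved, and neither was the order of *Has1*, *Has3*, *Cemip* and *Has2*, each of which overlapped its neighbour. *Cemip2* lay below every value of *Hyal2* and above every value of *Hyal1*, and *Hyal1* lay above every value of the 4 lowest genes. The 3 synthases together gave 0.965 ± 0.148 CPM per kb in WT cells with vehicle (SD, n = 3). *Cd44* made up 35.3 ± 0.610% of the summed level per kb of the 8 genes in WT vehicle, 40.9 ± 0.552% in WT PTH, 44.5 ± 0.961% in Y428F vehicle and 50.2 ± 1.41% in Y428F PTH libraries (SD, n = 3). Over the union of exons these shares were 48.6 ± 0.577%, 54.8 ± 0.417%, 57.8 ± 0.736% and 63.6 ± 1.21%, in the same order of groups.

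**Figure D1:**
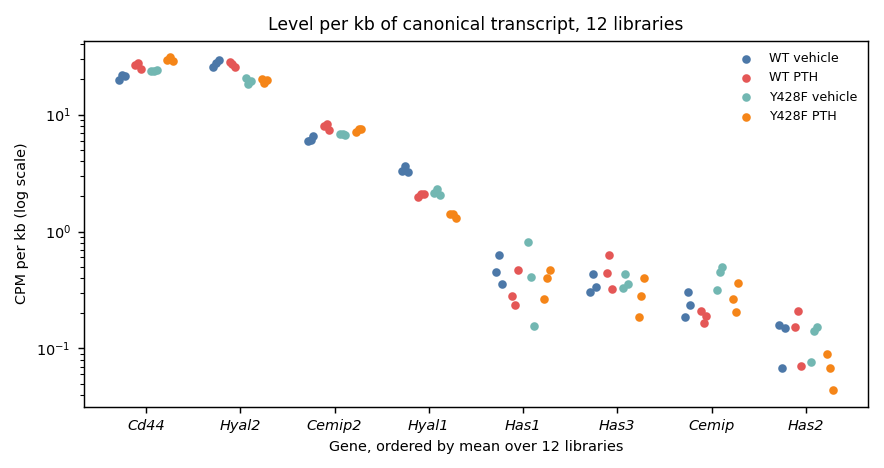
Level of each gene in CPM per kb of canonical transcript, on a log axis, with 1 point per library coloured by group. *Cd44* and *Hyal2* lie between 18.2 and 30.9 CPM per kb and the synthases and *Cemip* below 1 CPM per kb in all 12 libraries.

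With PTH, 3 of the 8 genes changed in WT cells: *Cd44* and *Cemip2* rose and *Hyal1* fell. A gene is called changed here where edgeR's quasi-likelihood test gave a p under 0.05 after Benjamini-Hochberg adjustment across the whole table, and adjusted p refers to that test throughout. Of the 15583 genes tested in WT cells, 11.8% were called (6.88% higher and 4.91% lower), and 29% had libraries of the groups that did not overlap in CPM, as did 3 of the 8 genes here. In Y428F cells 2 of the 8 were called, *Cd44* higher and *Hyal1* lower, against 12.4% of the 17691 genes tested (6.61% higher and 5.78% lower), and 3 of the 8 did not overlap against 30.8%. Between the lines, 4 of the 8 differed in vehicle libraries, *Cd44* and *Cemip* higher and *Hyal1* and *Hyal2* lower in Y428F cells, against 45.1% of all genes (22.4% higher and 22.7% lower), and 5 of the 8 did not overlap against 53.8%. With PTH, 3 differed, *Cd44* higher and *Hyal1* and *Hyal2* lower, against 45.7% of all genes (22.8% higher and 23% lower), and 3 of the 8 did not overlap against 51.9%. Such differences were thus common in the whole transcriptome. The comparisons share their vehicle or PTH libraries.

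The response to PTH itself was not called different between the lines for any of the 8 genes with edgeR, against 0.413% of all genes. With DESeq2 none of the 6 genes that had an adjusted p was called, and *Has1* and *Has2* had none. An unadjusted p under 0.05 with edgeR was found for 1 of the 8, *Cemip2*, and for 7.05% of all genes. With library totals in place of TMM, 38.0% rather than 58.4% of the genes called with PTH in WT cells were higher, and 38.1% rather than 53.4% in Y428F cells. The calls of the 8 genes with PTH were the same under both scalings.

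**Figure D2:**
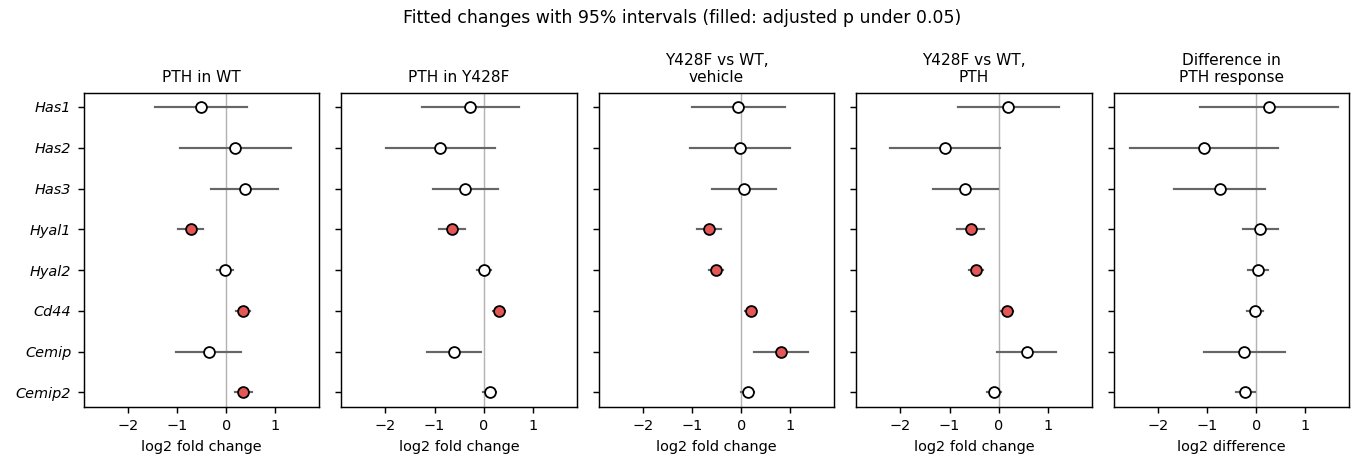
Fitted log2 fold changes of the 8 genes in the 5 comparisons (x axis), with bars for 95% intervals and filled points for an adjusted p under 0.05. *Hyal1* lies left of 0 and *Cd44* right of 0 in each of the first 4 panels, and no point is filled in the last panel, the difference in response.

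The synthase genes were scarcely expressed in any group. *Has1* (ENSMUSG00000003665.8, minus strand, from 18063585 to 18075467 on chromosome 17 of GRCm39) had 18, 23 and 14 counts in WT vehicle libraries 1 to 3 and 10, 8 and 17 in WT PTH libraries. It had 31, 17 and 6 counts in Y428F vehicle and 10, 15 and 18 in Y428F PTH libraries. The groups overlapped in all 4 comparisons. *Has2* (ENSMUSG00000022367.8, minus strand, from 56528342 to 56557999 on chromosome 15), which encodes the synthase most studied in mesenchymal cells, had 15, 6 and 14 counts with vehicle and 13, 17 and 6 with PTH in WT cells. In Y428F cells it had 7, 14 and 14 counts with vehicle and 8, 6 and 4 with PTH, the lowest mean of the 4 groups, though its libraries overlapped those of every other group. *Has3* (ENSMUSG00000031910.15, plus strand, from 107596874 to 107611198 on chromosome 8) had 24 to 32 counts in WT vehicle, 23 to 43.0 in WT PTH, 25 to 36 in Y428F vehicle and 14 to 30 in Y428F PTH libraries.

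At these counts only large changes of the synthases could have been detected. The log2 fold change with PTH in WT cells was -0.52 for *Has1* (95% interval -1.46 to 0.42), 0.19 for *Has2* (95% interval -0.95 to 1.32) and 0.38 for *Has3* (95% interval -0.30 to 1.06). In Y428F cells it was -0.27 for *Has1*, -0.88 for *Has2* (95% interval -2.00 to 0.24) and -0.37 for *Has3*. None of these was called. With PTH, the log2 difference of Y428F from WT cells was -1.09 for *Has2* (standard error 0.53, edgeR adjusted p = 0.104, from 0.0372 to 0.37 over the alternatives) and -0.68 for *Has3* (standard error 0.32, adjusted p = 0.0891, from 0.0321 to 0.405). Both passed the limit without WT PTH replicate 3, at adjusted p of 0.0372 and 0.0349, and *Has3* also without Y428F PTH replicate 3, at 0.0321.

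Other annotated genes cover part of the exons of most of the 8 genes, and whether the counting used strand is not given in the sources used here. The antisense gene *Has2os* shares 400 exonic bases with *Has2* and had 0 to 4 counts per library. *Chtf8* and *Derpc*, on the opposite strand, share 352 exonic bases with *Has3*, and *Chtf8* had 229.7 ± 11.2 CPM in WT cells with vehicle. Antisense noncoding genes also share 539 exonic bases with *Hyal2* (*Gm9917*), 299 with *Hyal1* (*Gm16343*), 207 with *Cd44* (*Gm57471*), 180 with *Has1* (*Gm65933*) and 97 with *Cemip2* (*Gm50130*). Without a known strand setting, reads of these genes cannot be told apart over the shared bases.

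*Has1* is the one synthase whose promoter was in the RefSeq promoter table, and its window is shown because it holds a cAMP response element, the site of the transcription factors that PTH's cAMP signal acts on. The windows of *Hyal1* and *Cd44* are shown beside it because these genes changed with PTH in both lines. Each runs from 250 to 31 bases before the RefSeq start, 5′ to 3′ on the gene's strand, and matched GRCm39 once on its chromosome, at chr17:18075481-18075700 (minus strand) for *Has1*, chr9:107453899-107454118 (plus strand) for *Hyal1* and chr2:102732041-102732260 (minus strand) for *Cd44*. No exon of GENCODE vM39 lies in them. Capitals mark matches to the motifs searched on both strands.
Has1: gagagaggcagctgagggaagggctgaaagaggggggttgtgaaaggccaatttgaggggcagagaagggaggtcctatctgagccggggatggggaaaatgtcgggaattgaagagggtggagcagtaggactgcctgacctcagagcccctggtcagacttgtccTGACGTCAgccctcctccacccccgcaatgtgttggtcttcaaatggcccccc
Hyal1: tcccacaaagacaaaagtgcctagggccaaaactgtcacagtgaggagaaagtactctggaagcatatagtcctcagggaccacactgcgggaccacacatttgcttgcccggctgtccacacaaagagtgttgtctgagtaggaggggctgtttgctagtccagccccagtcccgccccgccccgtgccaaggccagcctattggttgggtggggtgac
Cd44: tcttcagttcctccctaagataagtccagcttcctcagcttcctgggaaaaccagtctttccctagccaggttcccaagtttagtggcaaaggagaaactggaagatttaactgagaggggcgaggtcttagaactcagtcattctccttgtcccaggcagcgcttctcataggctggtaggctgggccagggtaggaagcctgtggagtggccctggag

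The *Has1* window held TGACGTCA, the cAMP response element, from 83 bases before the start, a motif in 1.14% of the 32851 windows of this length in the table. The shorter TGACG, found in 14.8% of all windows, lies inside it on each strand. The AP-1 motif TGANTCA is in 6.12% of all windows, and GGAATG, the motif of TEAD factors, the partners of YAP, in 11.4%. None of these motifs was in the windows of *Hyal1* and *Cd44*, and that of *Has1* held neither the AP-1 nor the TEAD motif. Of the other genes, *Hyal2* and *Cemip* were in the table, and the *Hyal2* window held 1 TEAD motif and the *Cemip* window none of those searched. Exons of *Hyal2* in GENCODE vM39 cover all 220 bases of its window, and the start of its canonical transcript lies inside the window. A match describes letters in the window and does not show that a factor binds there.

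*Hyal1* showed the largest called change with PTH of the 8 genes in both lines. *Hyal1* (ENSMUSG00000010051.16, plus strand, from 107454126 to 107458909 on chromosome 9 of GRCm39) had 10.0, 11.0 and 9.82 CPM in WT vehicle libraries 1 to 3. In WT PTH libraries 1 to 3 it had 5.95, 6.27 and 6.29 CPM. In Y428F cells it had 6.41, 6.93 and 6.17 CPM with vehicle and 4.27, 4.27 and 3.91 CPM with PTH. Every PTH library was below every vehicle library of the same line, and every Y428F library was below every WT library of the same treatment. These values stand for 70.7 to 193 expected counts per library.

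The log2 fold change of *Hyal1* with PTH was -0.73 in WT cells (standard error 0.12, edgeR adjusted p = 0.00159, n = 3 per group) and -0.65 in Y428F cells (standard error 0.13, adjusted p = 0.00152). The difference between the responses was 0.084 (95% interval -0.28 to 0.44, adjusted p = 0.97). Against WT cells, Y428F cells had a log2 fold change of -0.66 with vehicle (standard error 0.11, adjusted p = 6.61e-05) and -0.57 with PTH (standard error 0.13, adjusted p = 0.000914). WT cells with PTH and Y428F cells with vehicle, at 6.17 ± 0.189 and 6.50 ± 0.386 CPM, overlapped in range.

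The *Hyal1* value depends on how reads of shared exons were assigned. On the same strand, *Naa80*, which encodes the enzyme that acetylates the N-terminus of actin, shares 1920 exonic bases with *Hyal1*, and *Hyal3*, another hyaluronidase gene, shares 1436. Of the 3777 exonic bases of *Hyal1*, 1456 (38.5%) belong to neither, nor to *Hyal2*. The counts of *Hyal1* and *Naa80* were fractional in every library, as RSEM's estimates for shared reads are. *Naa80* moved as *Hyal1* did, from 18.5 ± 1.57 to 12.5 ± 1.25 CPM with PTH in WT cells (log2 fold change -0.56, adjusted p = 0.00319) and from 12.7 ± 0.925 to 8.24 ± 0.944 CPM in Y428F cells (log2 fold change -0.62, adjusted p = 0.000979). *Hyal3* had 4 to 21 counts per library and was not called in any comparison. When the counts of the 3 genes were summed as 1 gene, the log2 fold change with PTH was -0.62 in WT cells (adjusted p = 0.00033) and -0.59 in Y428F cells (adjusted p = 0.000135). The fall with PTH therefore held for the locus as a whole, while its split between *Hyal1* and *Naa80* was not resolved. Between the lines, *Naa80* was also lower in Y428F cells. Its log2 fold change was -0.54 with vehicle (edgeR adjusted p = 0.000239) and -0.60 with PTH (adjusted p = 0.00023). The split of the difference between the lines was thus not resolved either.

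**Figure D3:**
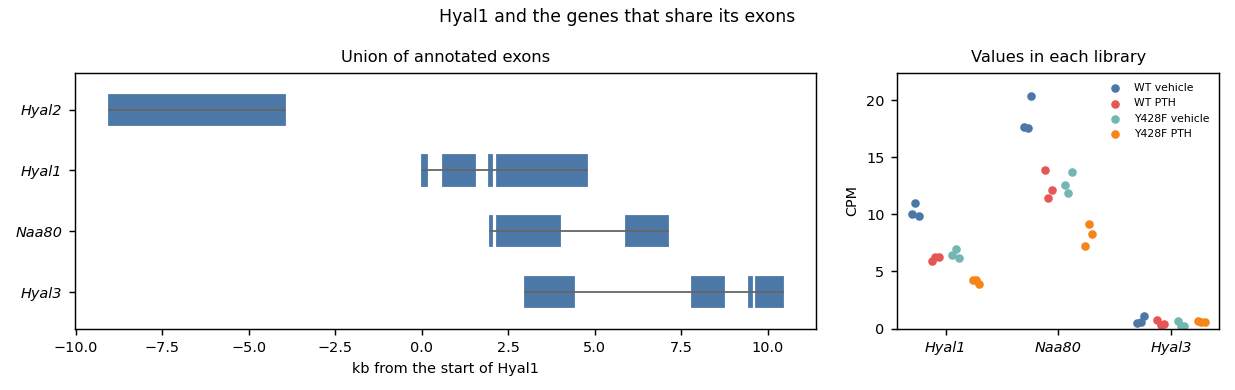
Left, the union of annotated exons (boxes) of *Hyal2*, *Hyal1*, *Naa80* and *Hyal3* by distance in kb from the start of *Hyal1*. Right, CPM in each library for the 3 genes that overlap, where *Hyal1* and *Naa80* are both lower with PTH in each line and *Hyal3* stays near 0.

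*Hyal2* did not respond detectably to PTH but was lower in Y428F than in WT cells. *Hyal2* (ENSMUSG00000010047.13, plus strand, from 107445086 to 107450171 on chromosome 9) had 53.8, 58.0 and 61.0 CPM in WT vehicle and 59.5, 56.7 and 52.9 CPM in WT PTH libraries. It had 42.8, 38.1 and 40.7 CPM in Y428F vehicle and 42.3, 39.2 and 41.0 CPM in Y428F PTH libraries. The treatments overlapped within each line, and the lines did not overlap under either treatment. The log2 fold change with PTH was -0.024 in WT (95% interval -0.19 to 0.14) and 0.012 in Y428F cells (95% interval -0.14 to 0.16). Between the lines it was -0.51 with vehicle (standard error 0.069, edgeR adjusted p = 3.64e-06) and -0.46 with PTH (standard error 0.070, adjusted p = 1.19e-05).

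The ratio of *Hyal2* to *Hyal1* per kb therefore moved with PTH, from 8.10 ± 0.730 to 13.2 ± 1.14 in WT cells and from 9.02 ± 0.955 to 14.2 ± 0.934 in Y428F cells (SD, n = 3), with no overlap between the treatments in either line. Over the union of exons the ratio was lower, from 4.18 ± 0.377 to 6.79 ± 0.589 in WT and from 4.65 ± 0.492 to 7.33 ± 0.482 in Y428F cells, again with no overlap. Both genes lie on chromosome 9, where the median log2 difference of Y428F from WT cells with vehicle was -0.23 over the 612 genes that averaged 2 CPM or more, and 75.8% of them were lower, against -0.0077 and 50.8% over all 11218 such genes. With PTH the median of chromosome 9 was -0.26. The part of this shift in the values of *Hyal1* and *Hyal2* was not tested.

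**Figure D4:**
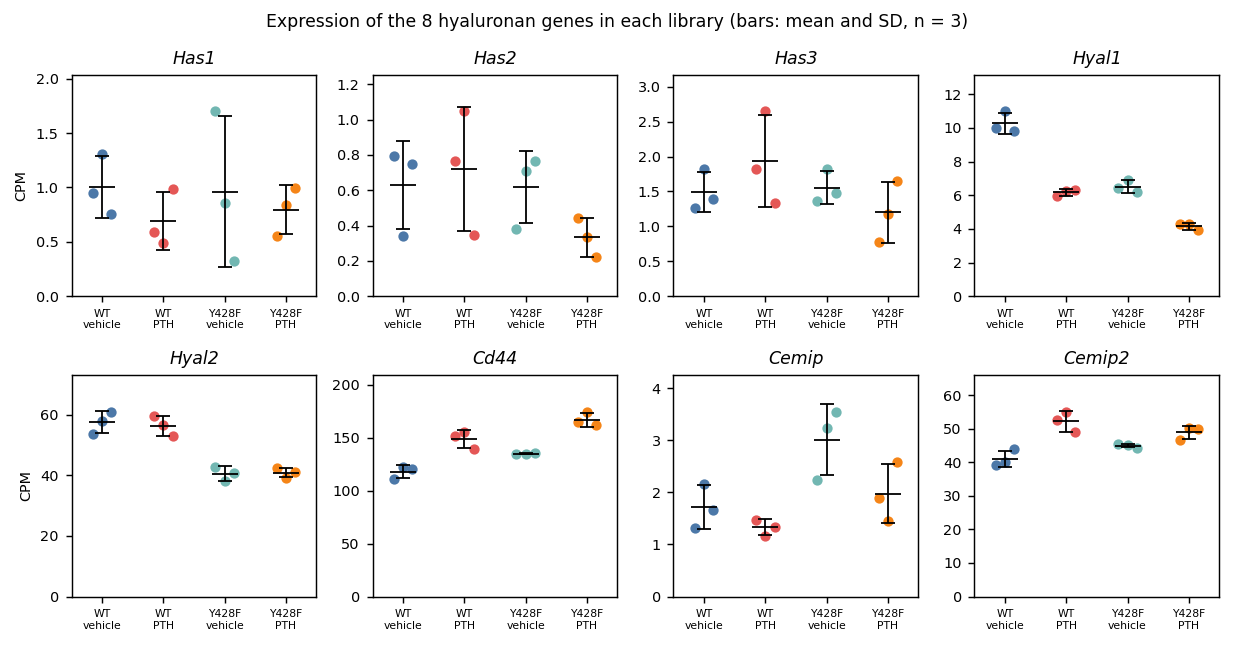
CPM of each of the 8 genes (y axes from 0) in the 3 libraries of each group, with black bars for mean and SD. *Hyal1* and *Cd44* separate vehicle from PTH in both lines, *Hyal2* separates the lines, and the points of *Has1*, *Has2* and *Has3* overlap in every comparison.

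*Cemip2* rose with PTH in WT cells. *Cemip2* (ENSMUSG00000024754.14, plus strand, from 21755657 to 21836114 on chromosome 19) had 39.2, 40.2 and 43.8 CPM in WT vehicle and 52.5, 55.1 and 49.0 CPM in WT PTH libraries, with no overlap. The log2 fold change was 0.35 (standard error 0.077, edgeR adjusted p = 0.00943), a 1.28-fold increase. In Y428F cells the values were 45.4, 45.0 and 44.4 CPM with vehicle and 46.6, 50.4 and 49.8 CPM with PTH. The libraries again did not overlap, but the log2 fold change of 0.12 was not called (95% interval -0.016 to 0.26, adjusted p = 0.276). The difference between the responses was -0.22 (95% interval -0.42 to -0.028) with an unadjusted p of 0.0272 and an adjusted p of 0.63, from 0.354 to 0.865 over the alternatives, so it did not pass the correction over all genes. The lines were not called different under either treatment, with log2 fold changes of 0.13 with vehicle (adjusted p = 0.122) and -0.093 with PTH (adjusted p = 0.269).

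*Cemip* was higher in Y428F than in WT cells in vehicle libraries. *Cemip* (ENSMUSG00000052353.14, minus strand, from 83582065 to 83735724 on chromosome 7) had 25, 38 and 31 counts in WT vehicle and 41, 64 and 65 counts in Y428F vehicle libraries. In CPM these groups did not overlap, with 1.32 to 2.16 in WT and 2.25 to 3.55 in Y428F cells, and the log2 fold change was 0.81 (standard error 0.26, edgeR adjusted p = 0.0153). The call was lost without WT vehicle replicate 1 (adjusted p = 0.0717), Y428F vehicle replicate 2 (adjusted p = 0.0539) or Y428F vehicle replicate 3 (adjusted p = 0.0774). With PTH, *Cemip* had 25, 19 and 23 counts in WT and 34, 26 and 47 counts in Y428F cells, and the log2 fold change of 0.57 was not called (adjusted p = 0.114). With PTH against vehicle it was -0.36 in WT cells (adjusted p = 0.542) and -0.60 in Y428F cells (95% interval -1.14 to -0.063, adjusted p = 0.149).

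*Cd44* rose with PTH in both lines and was higher in Y428F than in WT cells. *Cd44* (ENSMUSG00000005087.18, minus strand, from 102641486 to 102732010 on chromosome 2) had 111, 123 and 120 CPM in WT vehicle and 151, 155 and 140 CPM in WT PTH libraries. It had 135, 134 and 135 CPM in Y428F vehicle and 165, 175 and 162 CPM in Y428F PTH libraries. Neither the treatments within a line nor the lines within a treatment overlapped. These values stand for 2105 to 3109 counts per library, the most of the 8 genes. They are totals over the gene, so the standard form and forms with variable exons, which stromal and epithelial cells are known to splice differently, are not separated. *Esrp1* and *Esrp2*, the epithelial splicing factors that favour variable exons, were at 0 to 3 counts per library.

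The log2 fold change of *Cd44* with PTH was 0.34 in WT cells (standard error 0.063, edgeR adjusted p = 0.00329), a 1.27-fold increase, and 0.31 in Y428F cells (standard error 0.057, adjusted p = 0.000865), a 1.24-fold increase. The difference between these responses was -0.023 (95% interval -0.19 to 0.14, adjusted p = 0.989). Against WT cells, Y428F cells had a log2 fold change of 0.19 with vehicle (standard error 0.057, adjusted p = 0.00917) and 0.17 with PTH (standard error 0.057, adjusted p = 0.0193). The difference with PTH was not called without WT PTH replicate 3 (adjusted p = 0.0868) or Y428F PTH replicate 2 (adjusted p = 0.103). Neither difference between the lines reached a log2 fold change of 0.3, the size asked for under stricter limits. Blood cells also express *Cd44*, and their marker *Ptprc* averaged 0.853 ± 0.136 CPM for WT and 2.79 ± 0.279 CPM for Y428F vehicle libraries, and 0.513 ± 0.262 and 3.46 ± 0.118 CPM with PTH. In bulk RNA, fewer cells of a type and less RNA per cell cannot be told apart.

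Further genes of the hyaluronan pathway were taken from 5 lists written from general knowledge, and with PTH 3 of the 37 tested were called in WT cells (8.11%, against 11.8% of all genes) and 4 of the 39 tested in Y428F cells (10.3%, against 12.4%), all of them higher. Among the 12 genes of precursor synthesis, 11 were tested and 1 rose in WT cells, *Hk2*, a hexokinase, from 39.4 ± 1.57 to 58.1 ± 9.60 CPM (log2 fold change 0.56, adjusted p = 0.00332). *Ugp2*, which makes UDP-glucose, rose in Y428F cells (log2 fold change 0.21, adjusted p = 0.0318). *Ugp2* in WT cells (log2 fold change 0.24, adjusted p = 0.0552) and *Hk2* in Y428F cells (0.26, adjusted p = 0.118) were not called. *Ugdh*, named after its values were seen, which turns UDP-glucose into the UDP-glucuronic acid that the synthases use, went from 184 to 206 CPM in WT cells, and its log2 fold change of 0.16 was not called (adjusted p = 0.0753). The median log2 fold change of the list with PTH was 0.16 in WT and 0.0069 in Y428F cells, against -0.015 and -0.0067 over all genes tested.

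Among the 17 genes of the hyaluronan-binding matrix, 9 were tested, and *Ptx3*, a pentraxin that takes part in cross-linking hyaluronan in the matrix, was the gene called with PTH. It rose from 41.1 ± 10.4 to 60.8 ± 8.03 CPM in WT cells (log2 fold change 0.57, adjusted p = 0.025) and from 31.4 ± 0.490 to 52.9 ± 4.08 CPM in Y428F cells (log2 fold change 0.76, adjusted p = 0.00042). *Tnfaip6*, also named after its values were seen, whose product TSG-6 moves protein chains onto hyaluronan, had 0 to 2 counts with vehicle and 3 to 16 counts with PTH in WT cells and was not called (adjusted p = 0.0541). Of the CD44 linkers, moesin (*Msn*) rose in WT cells (log2 fold change 0.23, adjusted p = 0.0421) and radixin (*Rdx*) in Y428F cells (log2 fold change 0.17, adjusted p = 0.024). *Rdx* in WT cells (log2 fold change 0.17, adjusted p = 0.0768) and *Msn* in Y428F cells (0.14, adjusted p = 0.175) were not called. Of the 7 other receptors, *Tlr4* was called with PTH, in Y428F cells (log2 fold change 0.29, adjusted p = 0.038). No gene of the lists was called for the difference in response with edgeR.

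Between the lines in vehicle libraries, 22 of the 39 listed genes tested were called (56.4%), 9 higher and 13 lower in Y428F cells, against 45.1% of all genes. *Hmmr*, a hyaluronan-binding protein that also works at the mitotic spindle, was at 37.7 ± 4.81 CPM for WT and 85.1 ± 3.56 CPM for Y428F (log2 fold change 1.18, adjusted p = 3.9e-11). Among the other receptors, *Tlr2* and *Layn*, the gene of layilin, were lower in Y428F cells, with log2 fold changes of -0.93 and -0.38. *Hexa*, a lysosomal enzyme gene whose product removes end sugars from glycan chains, was lower with a log2 fold change of -0.78 (adjusted p = 2.44e-10), whereas *Gusb*, beta-glucuronidase, was higher by 0.13 (adjusted p = 0.0383). *Spam1*, *Hyal4* and *Hyal5* had 0 counts in every library.

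Of the 9 matrix genes tested, 5 were lower and 1 was higher in Y428F cells with vehicle, where 22.7% of all genes were lower and 22.4% higher, with a median log2 fold change of -0.37 against 0.012 over all genes. The 5 that were lower included *Ptx3*, which rose with PTH, with a log2 fold change of -0.39 (adjusted p = 0.0169). *Vcan*, the proteoglycan versican, had 561 ± 72.3 and 433 ± 33.3 CPM (log2 fold change -0.37, adjusted p = 0.00844), *Itih2*, a heavy chain of inter-alpha-inhibitor, had a log2 fold change of -0.42, and *Ncan*, another proteoglycan gene, was the gene that was higher, by 0.73. Among the CD44 linkers and sheddases, 3 were higher and 2 lower of 9 tested, against 45.1% of all genes called in either direction. *Ezr*, the gene of ezrin, rose from 82.9 ± 7.56 to 143 ± 3.21 CPM (log2 fold change 0.79, adjusted p = 3.61e-09) and *Msn* by 0.38 on the log2 scale, whereas *Mmp14*, a membrane protease that can shed CD44, fell from 897 ± 112 to 489 ± 9.54 CPM (log2 fold change -0.88, adjusted p = 4.55e-09). In precursor synthesis *Gpi1*, *Uap1* and *Ugdh* were higher by 0.34, 0.23 and 0.19. *Gfpt1*, which controls the entry of sugar into UDP-N-acetylglucosamine synthesis, was lower with a log2 fold change of -0.38.

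**Figure D5:**
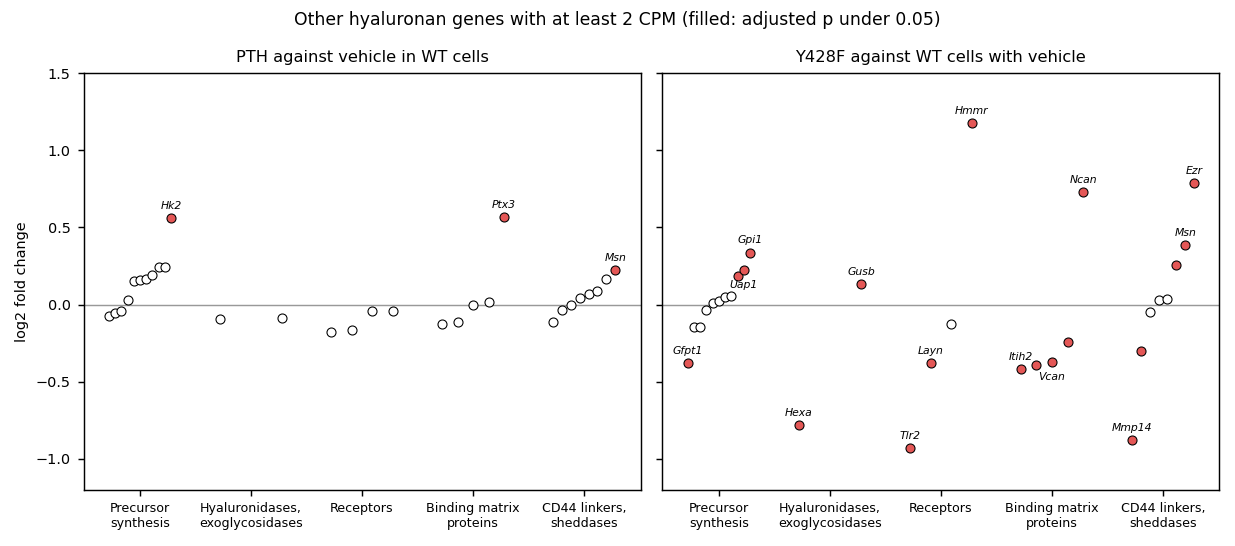
Log2 fold change of the other hyaluronan genes reported here that averaged 2 CPM or more, by list, for PTH in WT cells (left) and for Y428F against WT cells with vehicle (right), with filled points for an adjusted p under 0.05. On the left 3 points are filled, and on the right *Hmmr*, *Ezr* and *Ncan* are the highest and *Tlr2*, *Mmp14* and *Hexa* the lowest.

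With PTH, 20 of the 39 listed genes tested were called between the lines (51.3%), against 45.7% of all genes. *Hmmr* (log2 fold change 1.32), *Ezr* (0.69), *Gpi1* (0.35), *Msn* (0.30), *Ugdh* (0.17) and *Gusb* (0.14) were higher in Y428F cells, and *Mmp14* (-0.84), *Vcan* (-0.68), *Tlr2* (-0.65), *Hexa* (-0.60), *Gfpt1* (-0.54) and *Itih2* (-0.44) were lower. *Gnpnat1*, of the same sugar pathway as *Gfpt1*, and *Hapln4*, a link protein gene, were also lower with PTH, with log2 fold changes of -0.32 and -0.27. Of the genes named for vehicle libraries, *Ncan* (log2 fold change 0.39, adjusted p = 0.177), *Ptx3* (-0.20, adjusted p = 0.199), *Uap1* (0.11, adjusted p = 0.248) and *Layn* (-0.11, adjusted p = 0.327) were not called with PTH, and the difference in PTH response between the lines was not called for these 4 genes (lowest adjusted p = 0.663).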

How the data were processed

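Per the labels and methods, the authors aligned reads with STAR 2.7.10b to GRCm39 with a GENCODE annotation and estimated gene counts with RSEM. The deposited values are expected counts, which share reads of overlapping genes between them and need not be whole. Whether strand was used is not given in the sources used here. Counts were rounded here and tested with edgeR 4.0.16 (quasi-likelihood, TMM, genes whose counts summed to 10 or more, Benjamini-Hochberg adjustment over all genes, limit 0.05). The 6 WT libraries were fitted alone for their PTH response, with 15583 genes, and all 12 libraries together for the other comparisons, with 17691 genes. Standard errors were the log2 fold change over the square root of the F statistic, and intervals are 95%. The code was tested on simulated data. Positions and exons came from GENCODE vM39, which matched 56236 of 56980 identifiers, and promoters from RefSeq (GRCm38.p6), with 5 of the 8 genes present. Their windows were placed in GRCm39 by exact match.

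The 8 genes, the lists and the tests were chosen with earlier results of these data known. Of each list, the 3 called genes with the largest change, an average of 2 CPM or more and groups that did not overlap were named per comparison, and any other gene was chosen after its values were seen. Alternatives were DESeq2 1.42.0, other scalings and filters, stricter limits, a replicate block, other sets of libraries in the fit and each library left out. Summing the counts of *Hyal1*, *Hyal3* and *Naa80* was chosen after seeing the data. Of the listed genes, 1 is not reported here.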

Additional observations from a re-analysis of the deposited data

How the results depend on the processing

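Over the alternatives that left out a library, 121 of 126 values of the 12 called changes kept their direction and call, and over the other alternatives 90 of 93. None of them reversed. Without 1 library the number of the 8 genes called stayed at 3 for PTH in WT cells, 2 for PTH in Y428F cells and 0 for the difference in response, and ranged from 3 to 4 between the lines with vehicle and from 2 to 4 with PTH. With stricter limits (adjusted p under 0.01 and log2 fold change beyond 0.3), 2 of the 8 rather than 4 differed between the lines with vehicle, and *Cd44* and *Cemip* were the genes lost. The difference of *Cd44* between the lines with PTH was lost too, so 2 of the 8 rather than 3 were left there. With library totals, *Cemip2* was called between the lines with vehicle (log2 fold change 0.19, adjusted p = 0.0184 from edgeR), and the values near 0 of *Hyal2* with PTH in Y428F cells and of *Has2* between the lines with vehicle turned to -0.028 and 0.030.

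Among changes that were not called, leaving out 1 library turned the direction in 21 of 306 values. For PTH in WT cells *Has2* ranged from -0.16 to 0.52 and *Hyal2* from -0.058 to 0.025, and in Y428F cells *Has1* ranged from -0.67 to 0.41 and *Hyal2* from -0.034 to 0.056. Between the lines with vehicle *Has1* ranged from -0.74 to 0.34, *Has2* from -0.32 to 0.21 and *Has3* from -0.070 to 0.22, and with PTH *Has1* from -0.0023 to 0.55. For the difference in response *Has1* ranged from -0.15 to 0.93, *Hyal2* from -0.011 to 0.092 and *Cd44* from -0.066 to 0.015. Over the union of exons in place of the canonical transcript, levels were 21.0 CPM per kb for *Cd44*, 9.60 for *Hyal2*, 4.18 for *Cemip2*, 1.79 for *Hyal1*, 0.242 for *Has3*, 0.191 for *Has1* and 0.164 for *Cemip*. The longer length is the reason by construction. A minimum of 10 counts in every library left *Has1* and *Has2* without a value.

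Of all genes, 821 rather than 1837 passed the stricter limits with PTH in WT cells, 942 rather than 2192 in Y428F cells and 22 rather than 73 for the difference in response, which had 124 calls with DESeq2 and 216 with no filter. Without 1 library these counts ranged from 905 to 2211, from 1435 to 2515 and from 24 to 89. Replicate numbers did not pair the libraries, since the 18 same-numbered pairs had a mean correlation of 0.0019 and none was over 0.1. With the replicate number as a block no call of the 8 genes changed, and all genes gave 1643, 2273, 7976, 8027 and 76 calls in the 5 comparisons.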

Other observations

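Genes whose profile over the 12 libraries was nearest to that of *Hyal1* and *Cd44* were looked up after the values had been seen, by the root mean square difference of centred log2 CPM over 11217 genes. Nearest to *Hyal1* were *Acbd4* (0.0913), *Rfx5* (0.0950) and *Uvssa* (0.105), and *Naa80*, which shares exons with it, came at rank 28 (0.162). A flat profile lay at 0.459 from *Hyal1*. Nearest to *Cd44* were *Brd1* (0.0419), *Cbfb* (0.0448) and *Casc3* (0.0452), with a flat profile at 0.191. The profiles share libraries and group differences, so these distances are a description.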
